A study of Mus musculus with 8 samples.

Results

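The genes described here encode signalling kinases and protein phosphatases, the enzymes that add phosphate groups to proteins and take them off again, with the scaffold and regulatory subunits that direct them. They were chosen by gene symbol alone, from the MAPK cascade (Mapk, Map2k, Map3k and Map4k symbols), the Stk, Camk, Csnk, Pik3, Akt, Rps6k, Dyrk, Clk and Prk kinases, and the Ppp, Ptpn, Ptpr, Ptp4a and Dusp phosphatases, leaving out Prkcb and Ptpn6. The array named 124 such genes on features with a single symbol, and 66 of them had a ratio on at least 3 wild-type (WT) and 3 connexin43 knockout (Cx43 KO) arrays and were tested, among 3505 genes and unnamed features tested in all. RNA of cultured cortical astrocytes was hybridised on 2-colour arrays, 4 for WT and 4 for Cx43 KO, each against the same pool of RNA from adult mouse tissues of both sexes (brain, heart, aorta, lung, liver, kidney, stomach, spleen and gonads). The mice were newborn, WT or null for Cx43, and the strain of the WT astrocytes of lot batch 1 is given as C57BL/6j. Lot batch numbers 1 to 4 each held 1 array of each genotype. The labels do not state the age in days, the sex, the number of mice or cultures, how the null allele was made, or whether the 4 arrays of a genotype came from separate cultures, so that the p-values below reflect the spread of these arrays only, and this spread may be technical. The title of Cx43 KO 3 reads Cx43 without the word KO.

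Each value is a log2 ratio of astrocytes over tissue pool, with base 2 assumed, after setting the median of each array to 0. A value of 1 is then a ratio 2-fold that of the median feature. All differences are on this scale, Cx43 KO minus WT. In bulk RNA, fewer cells of a type and less RNA per cell cannot be told apart. The pool was not a control: it was a shared yardstick, and a level says how the astrocytes compare with it and not how abundant an RNA is.

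Protein phosphorylation carries signals from the membrane to the nucleus. Cascades of mitogen-activated protein kinases pass a signal from an upstream kinase (MAP4K, MAP3K) to a MAP2K and to ERK, JNK or p38, while protein kinase A responds to cyclic AMP, protein kinase C to lipids and calcium, and AMP-activated kinase to the energy state of the cell. Protein phosphatases 1 and 2A (PP1, PP2A) gain their targets through regulatory subunits, and dual-specificity phosphatases switch MAP kinases off. Connexin43, the main gap junction protein of astrocytes, carries a cytoplasmic tail that protein kinase C, casein kinase 1, protein kinase A, MAP kinases and calmodulin-dependent kinase phosphorylate, which sets the assembly, opening and turnover of gap junctions.

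Between 3506 and 5514 of 9568 features carried a ratio on an array, and the probe annotation named 0 features for Gja1, the gene of connexin43, so the knockout could not be checked by its transcript. Astrocyte markers had a median level of 1.19 (7 genes), from 0.11 for Aldoc to 4.09 for Fabp7, and genes of the adult tissues a median of -5.09 (7 genes), which set the direction of the ratio. The array Cx43 KO 4 stood apart: its mean over 4 astrocyte markers was 0.49 against 1.62 to 1.93 on the other 7 arrays, and its mean over 6 microglia and macrophage markers 2.65 against 0.24 to 1.45. Of 11 microglia and macrophage markers on the array, 2 had no ratio anywhere, and the other 9 had a median level of 1.28. All 9 tested cell cycle genes were lower in Cx43 KO (median -0.44), and their part in the results below was not tested. On the array Cx43 KO 4 the mean over 3 fibroblast and mural markers was 3.48, against -0.65 to 2.65 on the other 7 arrays. Over 2 neuron markers it was -2.27, against -1.22 to -0.24. Of 4 tested fibroblast and mural markers 3 were lower in Cx43 KO, with a median of -0.96. Among 6 tested astrocyte markers 4 were lower (median -0.38), and among 7 tested microglia and macrophage markers 4 were lower (median -0.09). Leaving out Cx43 KO 4 turned the sign of 15 of the 60 members that could then still be tested.

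No kinase or phosphatase gene differed between the genotypes after adjustment. At a Benjamini-Hochberg adjusted p of 0.05 in limma, 0 of 3505 genes and features passed (percent called 0; 263 had an unadjusted p under 0.05) and 0 of the 66 members did, the smallest adjusted p among them being 0.655. At an unadjusted p of 0.05, 5 members were counted, 4 of them higher in Cx43 KO (Ppp1r9b, Mapk8ip3, Ppp1r15a and Ptpn23) and 1 lower (Map4k4). Across all genes and features tested, 7.5% were under at that level, 3.85% higher and 3.65% lower, so the share among the members was near the background. The count was 1 without WT 1, 2 without WT 2, 1 without WT 3 and 3 without Cx43 KO 3. It was 3 with lot batch as a block (Mapkapk2, Ppp1r9b and Map3k7cl), 3 among genes with a ratio on all arrays and 9 with array weights. The values of the genotypes did not overlap in 3 members, Ptpn23 and Ppp2r5b higher and Csnk1e lower. Among all genes and features tested the share was 5.22% (2.43% higher and 2.8% lower). Ptpn23 had 4 WT and 3 Cx43 KO values, Ppp2r5b 3 and 3, and Csnk1e 3 and 4. Separation is easier to reach with fewer values, and no member with 8 values showed it.

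The members as a whole were centred near 0. Of the 66, 35 were higher and 31 lower in Cx43 KO, with a median difference of 0.02 against 0.02 over all genes and features, of which 52.6% were higher. The median size of a difference, regardless of sign, was 0.187 for the members and 0.187 for all. Differences beyond 0.5 in either direction were seen in 9 members (13.6%) and in 11.2% of all genes and features. The median 95% interval of a member, which is not adjusted, reached 0.49 to each side of its estimate with at most 4 arrays a genotype. This width is not a limit of detection, as members with larger differences, up to 0.78, did not pass adjustment either.

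**Figure D1:**
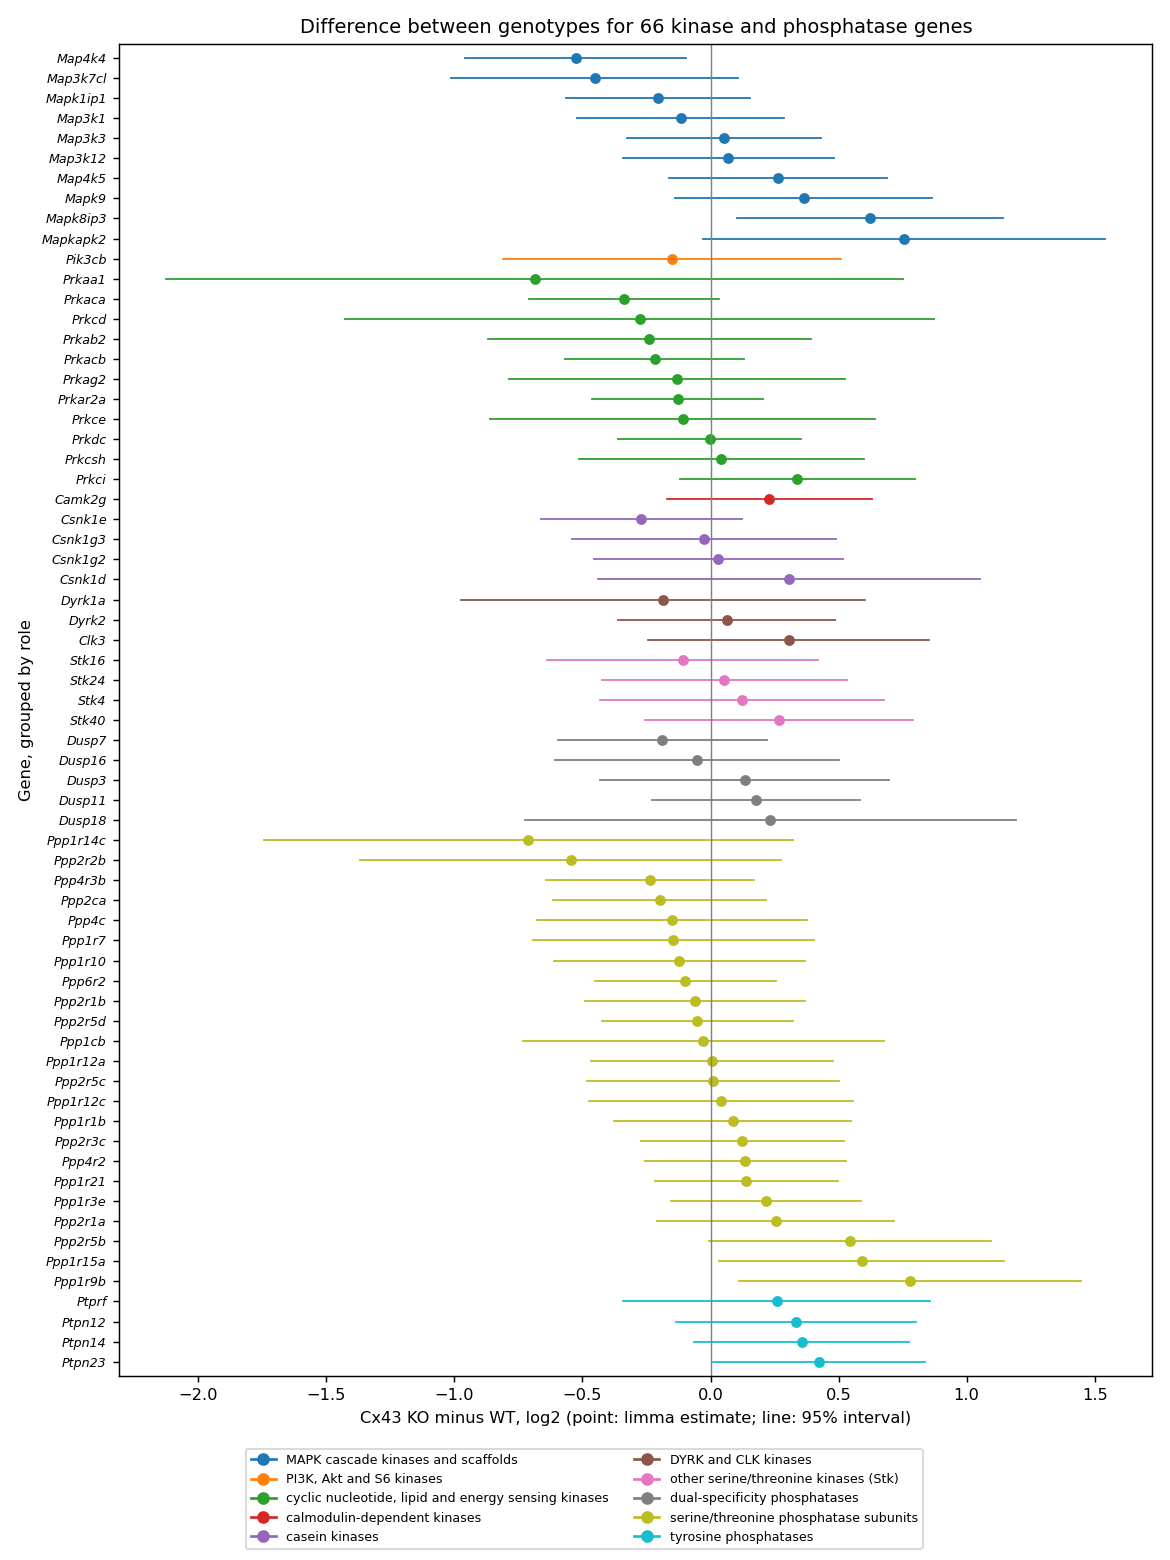
Difference between Cx43 KO and WT (log2, horizontal axis) for the 66 tested genes, grouped by role by colour; points are limma estimates and lines their 95% intervals. The intervals of 5 genes leave out 0, Map4k4 below it and Mapk8ip3, Ppp1r15a, Ppp1r9b and Ptpn23 above it, and the widest interval is that of Prkaa1.

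The genes with an unadjusted p under 0.05 are shown with the 250 bases before their annotated start, so that the letters of their promoters can be compared. RefSeq windows of assembly GRCm38.p6 were held for 4 of the 5. Capitals mark the palindromic cyclic AMP response element TGACGTCA, the CCAAT box on either strand (ATTGG when read on the reverse) and the GC box GGGCGG on either strand. Coordinates are those of the printed stretch, and each sequence reads 5′ to 3′ on the strand of its gene.
Mapk8ip3 (chr17:24936978-24937227, minus strand): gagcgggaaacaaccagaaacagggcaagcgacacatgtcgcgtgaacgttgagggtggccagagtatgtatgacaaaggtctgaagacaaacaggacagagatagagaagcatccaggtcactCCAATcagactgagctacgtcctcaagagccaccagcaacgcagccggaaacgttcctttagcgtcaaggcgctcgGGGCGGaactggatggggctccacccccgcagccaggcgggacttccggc
Ppp1r9b (chr11:94990962-94991211, plus strand): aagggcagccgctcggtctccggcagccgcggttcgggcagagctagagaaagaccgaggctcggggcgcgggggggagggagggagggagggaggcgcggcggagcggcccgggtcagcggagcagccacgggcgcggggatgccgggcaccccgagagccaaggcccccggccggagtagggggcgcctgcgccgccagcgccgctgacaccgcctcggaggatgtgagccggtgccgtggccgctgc
Ppp1r15a (chr7:45526269-45526518, minus strand): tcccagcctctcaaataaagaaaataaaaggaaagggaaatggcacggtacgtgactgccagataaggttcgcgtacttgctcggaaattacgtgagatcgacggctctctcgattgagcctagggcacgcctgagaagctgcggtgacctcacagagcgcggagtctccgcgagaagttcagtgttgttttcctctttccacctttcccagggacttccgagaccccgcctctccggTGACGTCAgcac
Ptpn23 (chr9:110408211-110408460, minus strand): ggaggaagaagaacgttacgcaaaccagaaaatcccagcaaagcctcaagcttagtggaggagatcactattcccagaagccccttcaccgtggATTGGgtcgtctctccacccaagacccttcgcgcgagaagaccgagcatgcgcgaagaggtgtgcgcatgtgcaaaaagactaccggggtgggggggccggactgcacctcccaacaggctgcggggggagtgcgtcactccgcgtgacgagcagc

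No marked motif was present in all 4 windows. In Ppp1r15a the response element began 12 bases before the start, and 1.55% of all 32851 RefSeq windows hold it. The half-site TGACG, which the full element contains and which is not marked by capitals, was found on the reverse strand 64 bases before the start in Mapk8ip3, in Ptpn23 at 23 and 11 bases on opposite strands, and in Ppp1r15a inside the full element; 17.8% of windows hold it. The CCAAT box lay 126 bases before the start in Mapk8ip3 and, on the reverse strand, 156 bases before it in Ptpn23, and is held by 33.9% of windows. The GC box lay 50 bases before the start in Mapk8ip3 and is held by 32.7% of windows. Of the 53 tested members with a window, 7.5% held the full element and 35.85% the half-site. The CCAAT box was held by 37.7% of them and the GC box by 71.7%. Over all 27025 genes with a window these shares were 1.77%, 19.8%, 37.5% and 35.4%, and no difference was tested. Ppp1r9b had a guanine and cytosine content of 78% in its window and none of these motifs, against 58% in Mapk8ip3, 60% in Ptpn23, 54.4% in Ppp1r15a and a median of 52.4% over all windows.

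Among the MAPK cascade kinases and scaffolds, 10 of 21 genes on the array were tested, 6 higher and 4 lower, with a median difference of 0.06. Map4k4, a Ste20-family kinase upstream of JNK, had ratios of 1.49, 1.61, 1.22 and 0.89 in WT 1 to 4 and 0.70, 0.63, 0.96 and 0.82 in Cx43 KO 1 to 4. WT 1 to 3 lay above every Cx43 KO array, and WT 4 lay among them. The means were 1.30 ± 0.32 and 0.78 ± 0.15 (SD, n = 4 each), and they differed by -0.53 (limma SE 0.20, adjusted p = 0.655), which ran from -0.66 to -0.42 when each array was left out in turn. Its relative Map4k5 had 1.11, 0.46, 0.61 and 0.84 in WT and 1.23, 1.09, 0.78 and 0.97 in Cx43 KO, a difference of 0.26 (SE 0.19), and was the higher of each lot batch pair in Cx43 KO.

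Mapk8ip3, a scaffold that joins the JNK cascade to kinesin transport, had ratios of -0.23, -0.69 and -0.05 on WT 1, 3 and 4 and 0.42, 0.50, 0.38 and -0.10 on Cx43 KO 1 to 4. Only Cx43 KO 4 lay among the WT values. The means were -0.32 ± 0.33 (SD, n = 3) and 0.30 ± 0.27 (SD, n = 4), and they differed by 0.62 (limma SE 0.23, adjusted p = 0.655). Mapk9, which encodes the kinase JNK2, had -0.11, -0.71 and -0.19 on WT 1, 2 and 4 and 0.03, -0.12, 0.36 and -0.17 in Cx43 KO, and its genotypes overlapped, with a difference of 0.36 (SE 0.22). Map3k12, Map3k3 and Map3k1, which start JNK or ERK5 signalling in other settings, differed by 0.07 (SE 0.18), 0.05 (SE 0.17) and -0.12 (SE 0.18). The upstream kinases in this list pointed in both directions, and each of these 3 differences was smaller than its SE.

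Mapkapk2, a kinase that p38 activates and that stabilises the mRNA of cytokines, had -0.44, -0.54, -0.21 and 0.31 in WT and 0.14, -0.31, 0.94 and 1.38 in Cx43 KO. Cx43 KO 3 and 4 lay above all WT arrays and the other Cx43 KO arrays among them. The difference was 0.76 (limma SE 0.35, adjusted p = 0.666), 0.48 to 1.04 with each array left out, and Mapkapk2 had the smallest p of the members with lot batch as a block (unadjusted p = 0.012). Its features did not give 1 size: they differed by 0.22 and 1.08, and WT 2 lacks the feature with the larger difference. The other feature was higher in Cx43 KO in 3 of 4 lot batch pairs. Map3k7cl, a TAK1-related gene, had 0.03, 0.26 and -0.21 on WT 1, 3 and 4 and -0.42, 0.13, -0.64 and -0.76 in Cx43 KO, a difference of -0.45 (SE 0.25). Mapk1ip1 differed by -0.20 (SE 0.16).

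**Figure D2:**
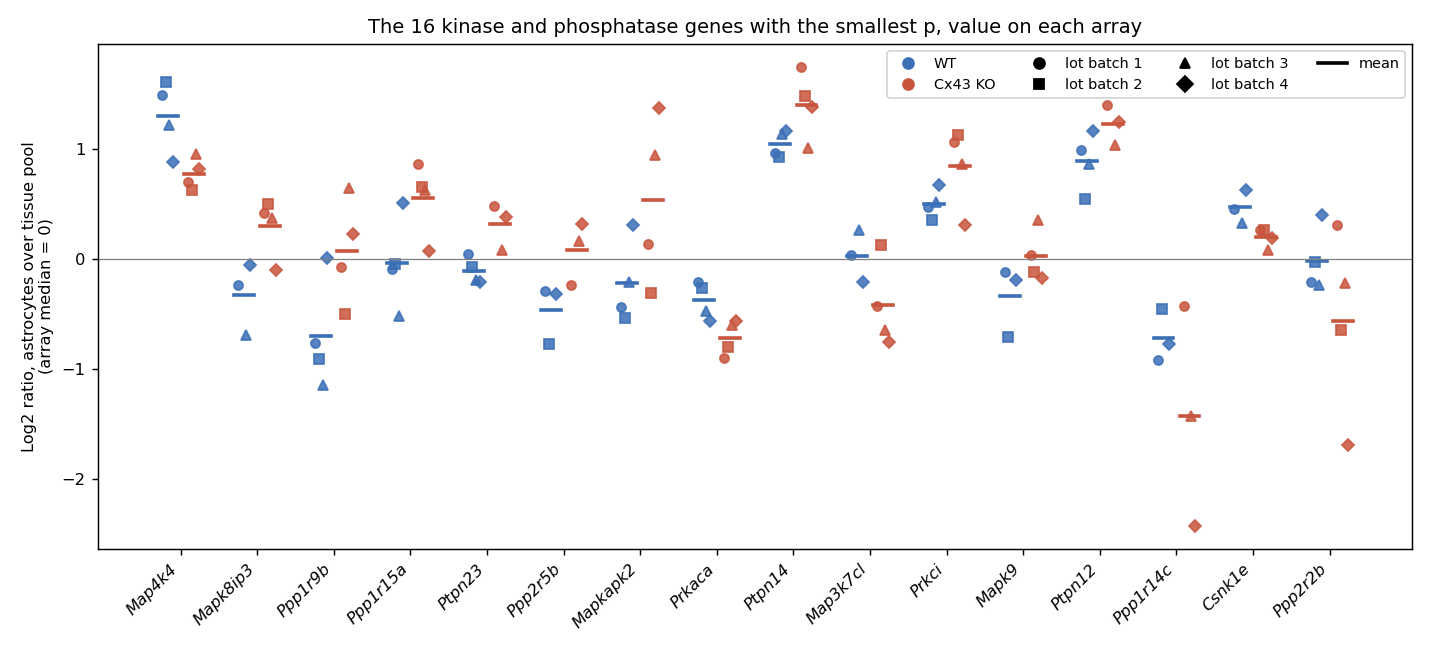
Log2 ratio of astrocytes over tissue pool (vertical axis) on each array for the 16 kinase and phosphatase genes with the smallest p, WT blue and Cx43 KO red, with a symbol for each lot batch and a bar at each mean. Ptpn23, Ppp2r5b and Csnk1e have no overlap between the genotypes, and each lacks a ratio on at least 1 array. The lowest point is Ppp1r14c on Cx43 KO 4 at -2.43.

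Dual-specificity phosphatases, which remove phosphate from both the tyrosine and the threonine of MAP kinases, did not separate the genotypes. Of 8 on the array 5 were tested, 3 higher and 2 lower, with a median of 0.13; from features with a ratio on all arrays, 2 were higher and 3 lower, with a median of -0.05. Dusp7, which acts on ERK, had -0.35, -0.81, -0.54 and -0.31 in WT and -0.52, -1.0, -0.66 and -0.59 in Cx43 KO, lower in each lot batch pair, with a difference of -0.19 (SE 0.18). Dusp18 had -0.15, 1.48, 0.95 and 1.33 in WT and 1.89, 1.05, 1.53 and 0.09 in Cx43 KO; low values came from WT 1 and Cx43 KO 4. Its difference was 0.23 (SE 0.43), and 0.58 without Cx43 KO 4. Dusp3, which acts on ERK and JNK, differed by 0.13 (SE 0.25) as the mean of its features, but each of its tested features was lower in Cx43 KO (-0.06 and -0.06), and WT 2 lacks the one with the higher ratio. Dusp11, a phosphatase of RNA, differed by 0.18 (SE 0.18), and Dusp16, which acts on JNK, by -0.05 (SE 0.25).

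The protein kinase A subunits were all below WT in mean, without passing. Prkaca, its main catalytic subunit, had -0.21, -0.26, -0.48 and -0.57 in WT and -0.90, -0.80, -0.60 and -0.56 in Cx43 KO. Cx43 KO 1 to 3 lay below all WT arrays, and Cx43 KO 4 lay just above the lowest. The means were -0.38 ± 0.17 and -0.72 ± 0.16 (SD, n = 4 each), and they differed by -0.34 (limma SE 0.17, adjusted p = 0.696). Prkacb, the other catalytic subunit, had 0.0042, -0.0065, 0.02 and -0.14 in WT and -0.47, -0.28, -0.10 and -0.15 in Cx43 KO, a difference of -0.22 (SE 0.16). Prkar2a, a regulatory subunit that holds the enzyme inactive, differed by -0.13 (SE 0.15). Of the 5 protein kinase A genes on the array the 3 tested were lower, with a median of -0.22.

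AMP-activated kinase had 3 of its 4 genes tested, each with a lower mean in Cx43 KO (median -0.24), and each of these signs hung on single arrays. Prkaa1, its catalytic subunit, had 0.73, 1.97, 1.08 and 1.05 in WT and -1.33, 1.20 and 1.70 on Cx43 KO 1, 3 and 4, the genotypes differing by -0.69 (limma SE 0.64, adjusted p = 0.826). The value of Cx43 KO 1 averages in a feature that had a ratio on that array alone, at -3.59. That of WT 1 averages in another feature with a ratio on WT 1 alone, at 1.02. The only feature of Prkaa1 that could be tested on its own differed by 0.14 (SE 0.34). Prkab2, which tethers the complex, had -0.29, -0.54, -0.19 and -0.82 in WT and -0.35, -0.27, -0.63 and -1.55 in Cx43 KO, a difference of -0.24 (SE 0.28), and 0.04 without Cx43 KO 4. Prkag2, which senses AMP, differed by -0.13 (SE 0.30), by 0.14 without Cx43 KO 4 and by 0.02 without WT 2.

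The protein kinase C genes Prkcd and Prkce varied widely among the Cx43 KO arrays. Prkcd, the delta form, had -0.58, -1.37, -1.17 and -0.96 in WT and -2.49, -2.05, -1.0 and 0.35 in Cx43 KO. Cx43 KO 1 and 2 lay below all WT arrays and Cx43 KO 4 above them. The means were -1.02 ± 0.34 and -1.30 ± 1.26 (SD, n = 4 each), and they differed by -0.28 (limma SE 0.52, adjusted p = 0.93), and -0.83 without Cx43 KO 4. Prkcd is abundant in blood and immune cells. The 6 microglia and macrophage markers had their lowest means on Cx43 KO 1 and 2 (0.24 and 0.47), where Prkcd was lowest. Their highest mean was on Cx43 KO 4 (2.65), where Prkcd was highest. On WT 1 to 4 their means were 0.76, 1.40, 1.45 and 0.96. WT 2 and 3 thus had the highest marker means of the WT arrays and the lowest Prkcd. The 3 fibroblast and mural markers had means of -0.65 and -0.18 on Cx43 KO 1 and 2 and 3.48 on Cx43 KO 4. Their means were 2.65, 0.90, 1.35 and 1.76 on WT 1 to 4 and 1.61 on Cx43 KO 3. Over the 8 arrays these means had the same order as Prkcd. The part of either list in the values of Prkcd was not tested. Prkce, the epsilon form, was lowest on Cx43 KO 4, with -1.34, -0.82, -1.26 and -1.58 in WT and -1.14, -0.50, -1.52 and -2.28 in Cx43 KO, a difference of -0.11 (SE 0.34), and 0.20 without Cx43 KO 4.

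Prkci, an atypical form that sets cell polarity, had 0.47, 0.36, 0.52 and 0.67 in WT and 1.07, 1.13, 0.87 and 0.31 in Cx43 KO. Cx43 KO 1 to 3 lay above all WT arrays and Cx43 KO 4 below them. The difference was 0.34 (limma SE 0.21, adjusted p = 0.753), and 0.52 without Cx43 KO 4. Prkdc, the catalytic subunit of the DNA-dependent protein kinase, differed by -0.0029 (SE 0.16). Prkcsh, taken in by its symbol, encodes a subunit of an enzyme that trims glycoproteins and is no kinase; it differed by 0.04. Of 18 Prk symbols on the array 11 were tested, 2 higher and 9 lower, with a median of -0.13, and 0 had an unadjusted p under 0.05.

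**Figure D3:**
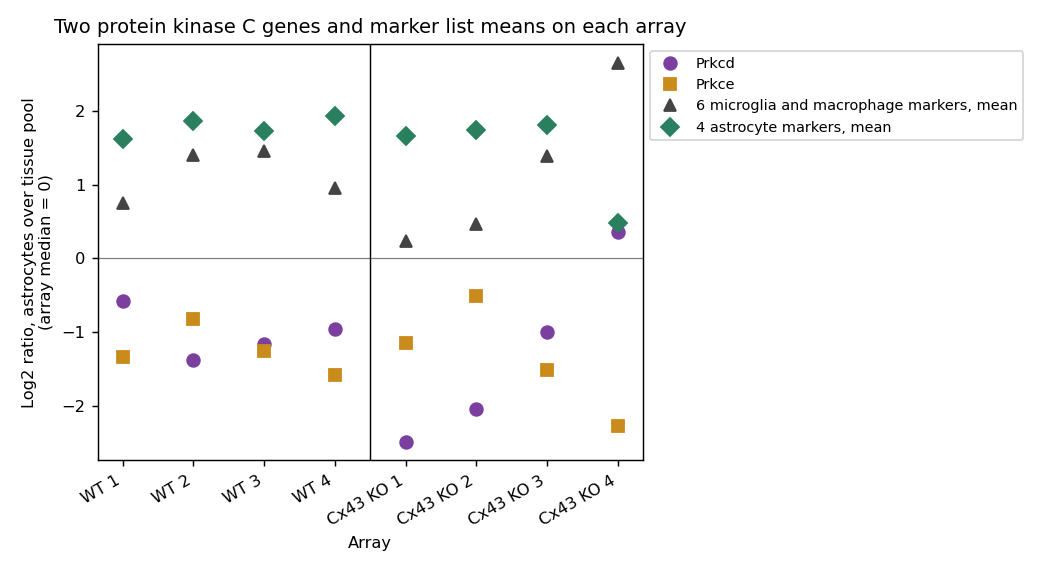
Log2 ratio of Prkcd and Prkce, and the mean log2 ratio of 6 microglia and macrophage markers and of 4 astrocyte markers (vertical axis), on each of the 8 arrays. Prkcd reaches 0.35 on Cx43 KO 4, where the astrocyte marker mean is 0.49 and the microglia and macrophage mean 2.65. Among the WT arrays, WT 2 and 3 are lowest in Prkcd and highest in the microglia and macrophage mean.

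Of the PI3K, Akt and S6 kinases, which relay growth factor signals, 1 of 7 genes was tested. Pik3cb, a catalytic subunit of phosphoinositide 3-kinase, had -0.18, 0.87, 0.25 and 0.16 in WT and 0.25, 0.54, 0.36 and -0.65 in Cx43 KO, a difference of -0.15 (SE 0.30), and 0.11 without Cx43 KO 4. Akt1 had a ratio on 1 array, a Cx43 KO array, and Akt2 on none, so this branch was hardly measured.

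Casein kinase 1, which phosphorylates connexin43 among many other proteins, had 4 of its 5 genes on the array tested, 2 higher and 2 lower, with a median of 0.0028. Csnk1e had 0.45, 0.33 and 0.63 on WT 1, 3 and 4 and 0.27, 0.26, 0.08 and 0.20 in Cx43 KO. Every Cx43 KO array lay below every WT array with a ratio, by a narrow gap. The means were 0.47 ± 0.15 (SD, n = 3) and 0.20 ± 0.09 (SD, n = 4), and they differed by -0.27 (limma SE 0.17, adjusted p = 0.764). Csnk1d, the closest relative of Csnk1e, had -0.0063, 0.50, 0.32 and 0.48 in WT and 0.18, -0.13, 0.90 and 1.57 in Cx43 KO, a difference of 0.31 (SE 0.34), and -0.0075 without Cx43 KO 4. The gamma forms Csnk1g2 and Csnk1g3 differed by 0.03 (SE 0.22) and -0.03 (SE 0.23).

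Camk2g, the only tested member of the calmodulin-dependent kinases (1 of 3 on the array), encodes a form of the calcium-activated kinase CaMKII. It had 0.83, 0.85, 1.10 and 1.30 in WT and 1.14, 1.35, 1.47 and 1.04 in Cx43 KO, the genotypes differing by 0.23 (limma SE 0.18, adjusted p = 0.793). Its 3 features lay at mean ratios of 0.43, 0.63 and 2.35 but differed between genotypes by 0.17, 0.22 and 0.29, with the same sign. Among the DYRK and CLK kinases, 3 of 4 were tested. Clk3, which phosphorylates splicing factors, had -0.08, -0.72, -0.98 and -0.25 in WT and 0.0074, -0.68, -0.19 and 0.06 in Cx43 KO, a difference of 0.31 (SE 0.25). WT 2, WT 3 and Cx43 KO 2 lack 1 of its features, and the feature with a ratio on all arrays differed by 0.18 (SE 0.25), higher in 3 of 4 lot batch pairs. Dyrk1a, a kinase of brain development, had 0.15, 0.41, 0.0089 and 0.93 in WT and 0.47, 0.78, 0.42 and -0.92 in Cx43 KO, a difference of -0.19 (SE 0.36), and 0.18 without Cx43 KO 4. Dyrk2 differed by 0.06 (SE 0.19).

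Of 10 other serine/threonine kinases with Stk symbols 4 were tested, 3 higher and 1 lower (median 0.09). Stk40 had 0.23, 1.12, 0.06 and 0.48 in WT and 0.73, 0.54, 0.94 and 0.75 in Cx43 KO, a difference of 0.27 (SE 0.24). Stk4, the Hippo pathway kinase MST1, had 0.21, 0.79 and 0.15 on WT 1, 2 and 4 and 0.32, 0.17, 0.87 and 0.66 in Cx43 KO, a difference of 0.12 (SE 0.25). Stk24, a related kinase of the same family, had -0.44, -0.40, -0.57 and -0.50 in WT and -0.49, -0.70, -0.69 and 0.19 in Cx43 KO. Only Cx43 KO 4 stood away from the others, and its difference was 0.05 (SE 0.22), and -0.15 without that array. Stk16 differed by -0.11 (SE 0.24).

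Protein phosphatase 1 is a catalytic subunit joined to a large set of targeting subunits, and 11 of its 17 genes on the array were tested, 7 higher and 4 lower, with a median of 0.04. Ppp1r9b (spinophilin), which brings the enzyme to actin, had -0.77, -0.91, -1.15 and 0.01 in WT and -0.07, -0.50, 0.65 and 0.23 in Cx43 KO. It was higher in Cx43 KO in each lot batch pair, although WT 4 lay among the Cx43 KO arrays. The means were -0.70 ± 0.50 and 0.08 ± 0.48 (SD, n = 4 each), and they differed by 0.78 (limma SE 0.30, adjusted p = 0.655), 0.59 to 1.02 with each array left out and 0.44 without both arrays of lot batch 3.

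Ppp1r15a (GADD34), a stress-induced subunit that returns the translation factor eIF2 alpha to its active form, had -0.09, -0.05, -0.52 and 0.51 in WT and 0.86, 0.66, 0.63 and 0.07 in Cx43 KO. The order was reversed in lot batch 4, where WT 4 lay above Cx43 KO 4. The means were -0.04 ± 0.42 and 0.55 ± 0.34 (SD, n = 4 each), and they differed by 0.59 (limma SE 0.25, adjusted p = 0.655), and 0.75 without Cx43 KO 4. Its promoter is the window above with the full cyclic AMP response element. Ppp1r3e, which brings the phosphatase to glycogen, had 0.26, 0.36, 0.41 and 0.31 in WT and 0.81, 0.66, 0.39 and 0.34 in Cx43 KO, a difference of 0.22 (SE 0.17). Ppp1r14c, an inhibitor, had -0.92, -0.46 and -0.77 on WT 1, 2 and 4 and -0.43, -1.43 and -2.43 on Cx43 KO 1, 3 and 4, a difference of -0.71 (SE 0.45) over 6 values.

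The catalytic subunit Ppp1cb had 0.35, 0.17, 0.58 and 0.98 in WT and 1.09, 0.74, 0.58 and -0.44 in Cx43 KO, a difference of -0.03 (SE 0.32), and 0.28 without Cx43 KO 4. The myosin-targeting subunits Ppp1r12a and Ppp1r12c differed by 0.0062 and 0.04, and Ppp1r1b (DARPP-32), an inhibitor that protein kinase A switches on, by 0.09. Ppp1r21 differed by 0.14 and Ppp1r10, a nuclear targeting subunit, by -0.12. Ppp1r7 lay far below the pool on all arrays with a ratio, at -3.79, -4.35 and -4.26 in WT and -4.21, -4.08 and -4.56 in Cx43 KO, and differed by -0.15 (SE 0.24).

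Protein phosphatase 2A consists of a catalytic subunit, a scaffold and a regulatory B subunit that picks the substrate. Of 10 genes on the array 8 were tested, 4 higher and 4 lower, with a median of -0.02. The scaffold Ppp2r1a had 0.62, 1.26, 0.84 and 1.06 in WT and 0.91, 1.11, 1.61 and 1.18 in Cx43 KO, a difference of 0.25 (SE 0.21), and its relative Ppp2r1b differed by -0.06. The catalytic subunit Ppp2ca had 0.30, 0.14, 0.48 and 0.38 in WT and 0.36, 0.21, -0.30 and 0.23 in Cx43 KO, a difference of -0.20 (SE 0.19), with Cx43 KO 3 the lowest array.

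The B subunits split in direction. Ppp2r5b had -0.29, -0.77 and -0.32 on WT 1, 2 and 4 and -0.24, 0.16 and 0.32 on Cx43 KO 1, 3 and 4, with no overlap although WT 1 and Cx43 KO 1 nearly met, and a difference of 0.54 (limma SE 0.24, adjusted p = 0.666). Ppp2r2b, a form abundant in brain, had -0.21, -0.02, -0.23 and 0.40 in WT and 0.31, -0.64, -0.22 and -1.69 in Cx43 KO, a difference of -0.55 (SE 0.37), and -0.17 without Cx43 KO 4. Ppp2r3c, Ppp2r5c and Ppp2r5d differed by 0.12, 0.01 and -0.05. The 3 tested genes of protein phosphatase 4 were lower for the catalytic subunit Ppp4c (-0.15, SE 0.24) and for Ppp4r3b (-0.24, SE 0.18) and higher for Ppp4r2 (0.14), whose features differed by -0.10 and 0.37. Ppp6r2, a subunit of protein phosphatase 6, differed by -0.10 (SE 0.16).

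The tyrosine phosphatases lay higher in Cx43 KO in all 4 tested genes of 10 on the array, with a median of 0.35 beside 0.02 over all genes and features. Ptpn23 (HD-PTP), which helps sort receptors in endosomes, had 0.04, -0.07, -0.19 and -0.21 in WT and 0.48, 0.08 and 0.38 on Cx43 KO 1, 3 and 4. The genotypes did not overlap, with WT 1 and Cx43 KO 3 next to each other. The means were -0.11 ± 0.12 (SD, n = 4) and 0.31 ± 0.21 (SD, n = 3), and they differed by 0.42 (limma SE 0.18, adjusted p = 0.658). Ptpn14, which binds the Hippo pathway effector YAP, had 0.96, 0.93, 1.14 and 1.17 in WT and 1.75, 1.48, 1.01 and 1.38 in Cx43 KO, where only Cx43 KO 3 lay among the WT values. Its difference was 0.36 (limma SE 0.19, adjusted p = 0.696).

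Ptpn12 (PTP-PEST), which acts at focal adhesions, had 1.00, 0.54, 0.87 and 1.17 in WT and 1.40, 1.04 and 1.25 on Cx43 KO 1, 3 and 4, a difference of 0.33 (SE 0.21). Ptprf (LAR), a receptor phosphatase of cell contacts, had 0.69, 1.29, 1.49 and 1.59 in WT and 1.69, 1.65, 1.88 and 0.87 in Cx43 KO. As a mean of its features, Cx43 KO 1 to 3 lay above all WT arrays, and Cx43 KO 4 lay near WT 1. Neither feature alone gave this order, and WT 2 lacks the one with the higher ratio. In the feature with a ratio on all arrays, Cx43 KO 2 (1.16) lay below WT 2 (1.29) and WT 4 (1.23). In the other, Cx43 KO 1 (1.81) lay below WT 3 (1.97) and WT 4 (1.95). The difference of Ptprf was 0.26 (limma SE 0.27, adjusted p = 0.839), 0.48 without Cx43 KO 4, and 0.17 from the feature with a ratio on all arrays. These 4 genes are too few to call the direction a property of the family, and only Ptpn23 had an unadjusted p under 0.05.

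Members known to act on connexin43 or to bind it, a list of 12 on the array, had 8 tested genes: Prkcd, Prkce, Csnk1d, Csnk1e, Prkaca, Prkacb, Camk2g and Ppp2ca. Only Csnk1d and Camk2g were higher and 6 were lower, with a median of -0.21, and 0 had an unadjusted p under 0.05. Csnk1e was the 1 gene of the list without overlap. Of 10 members mostly of blood and immune cells 2 were tested, Prkcd and Stk4, 1 in each direction. When all kinase lists were joined, 16 of 34 tested genes were higher and 18 lower, with a median of -0.01, and the phosphatase lists had 19 of 32 higher and 13 lower, with a median of 0.06.

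Against the tissue pool, most members lay close to the median feature. Over the 53 with a ratio on all 8 arrays, 13 were above 0 on every array (24.5%, against 25.7% of all genes and features with 8 values) and 9 below 0 on every array (17.0%, against 25.4%). The highest means were those of Ptprf at 1.39, Ptpn14 at 1.23, Camk2g at 1.14, Ppp2r1a at 1.07, Map4k4 at 1.04, Dusp18 at 1.02, Map4k5 at 0.89 and Prkci at 0.68. The lowest were those of Prkce at -1.31, Ppp2r5d at -1.26, Stk16 at -1.23, Prkcd at -1.16, Csnk1g2 at -1.10, Ppp4c at -0.79, Dusp7 at -0.60 and Prkab2 at -0.58. The order depends on which features were averaged. The feature of Ptprf with a ratio on all arrays had a mean of 1.08, below that of Ptpn14. The features of Camk2g had means of 0.43, 0.63 and 2.35. Neighbours in this order overlapped in their ranges over arrays. Of these, 0 members were over 1 or under -1 on all arrays.

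**Figure D4:**
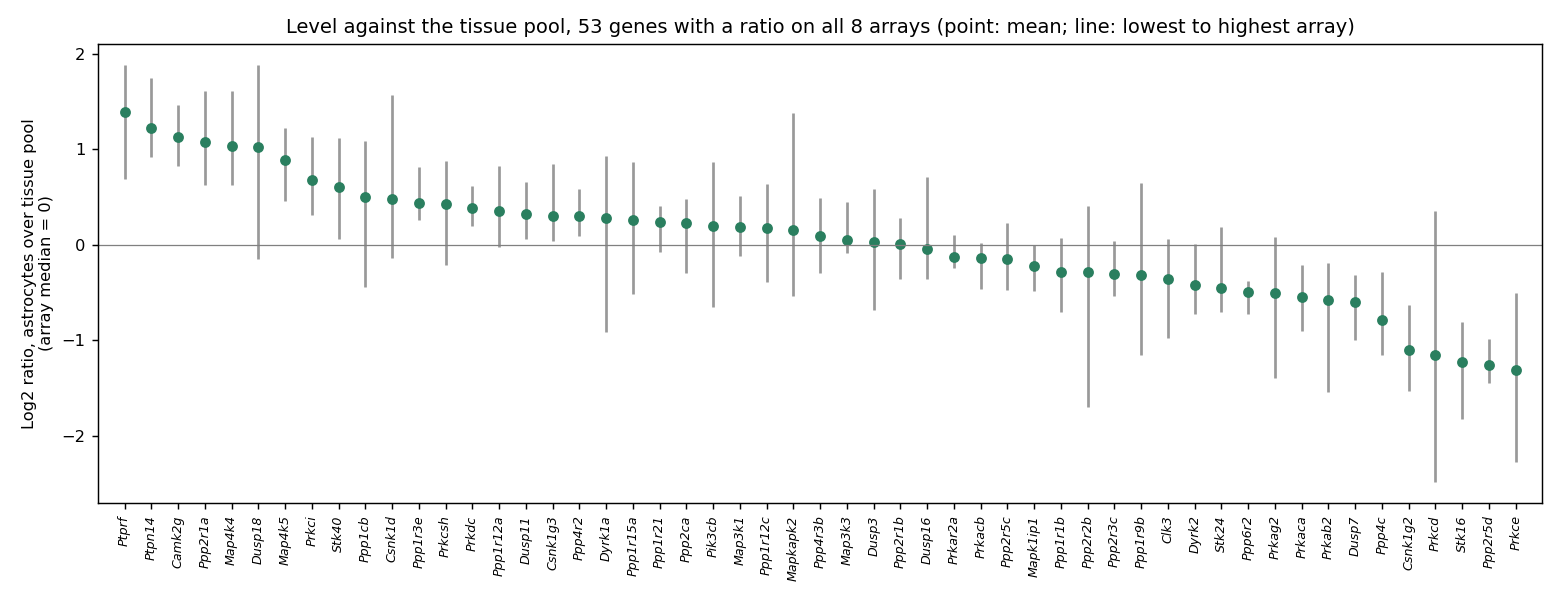
Mean log2 ratio of astrocytes over tissue pool (vertical axis, point) and the range from the lowest to the highest array (line) for the 53 genes with a ratio on all 8 arrays, in order of the mean. The means run from 1.39 for Ptprf to -1.31 for Prkce, and the ranges of neighbours overlap.

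Cx43 KO 4 also stood apart in the members themselves. It had the highest or the lowest value for 24 of the 53 members (12 highest and 12 lowest, 45.3% against 43.0% of all genes and features), while the other arrays did so for 17.0% to 26.4%. The genes it set highest included Csnk1d (1.57, next 0.90), Mapkapk2 (1.38, next 0.94), Prkcd (0.35, next -0.58) and Stk24 (0.19, next -0.40). Those it set lowest included Ppp2r2b (-1.69, next -0.64), Prkab2 (-1.55, next -0.82), Prkag2 (-1.39, next -0.64), Dyrk1a (-0.92, next 0.0089) and Ppp1cb (-0.44, next 0.17). Without Cx43 KO 4 the sign turned for Map3k3 (-0.07), Ppp1r12c (-0.11), Prkcsh (-0.10), Ppp2r5c (-0.11), Dusp16 (0.04), Ppp2r5d (0.0062) and Prkdc (0.01), beside the genes given with that value above. Ppp4c then differed by -0.34, Csnk1g3 by -0.18, Mapkapk2 by 0.48, Ppp1r12a by 0.13, Dusp11 by 0.10 and Ppp2r3c by 0.03. The SD was larger in Cx43 KO for 31 of the 53 members (58.5%, against 58.0% of all). Without Cx43 KO 4 it was larger for 24 of the 53, against 41.8% of all. The largest pooled SDs were 1.11 for Prkaa1, 0.93 for Prkcd and 0.76 for Dusp18, beside a median of 0.29.

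Within the lot batches, 10 of the 53 members had the same sign of Cx43 KO minus WT in all 4 pairs (18.9%), against 16% of genes and features with 8 values. From features with a ratio on all arrays, 7 of 53 did (13.2%), against 16.1% of genes and features, and the share was near the background both ways. Map4k5, Ppp1r9b and Ppp2r3c were higher in each pair, and Dusp7, Map4k4, Mapk1ip1 and Prkacb lower, in both counts. Clk3, Mapkapk2 and Ppp4r3b had the same sign in all pairs only as means of features that were not the same on every array.

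**Figure D5:**
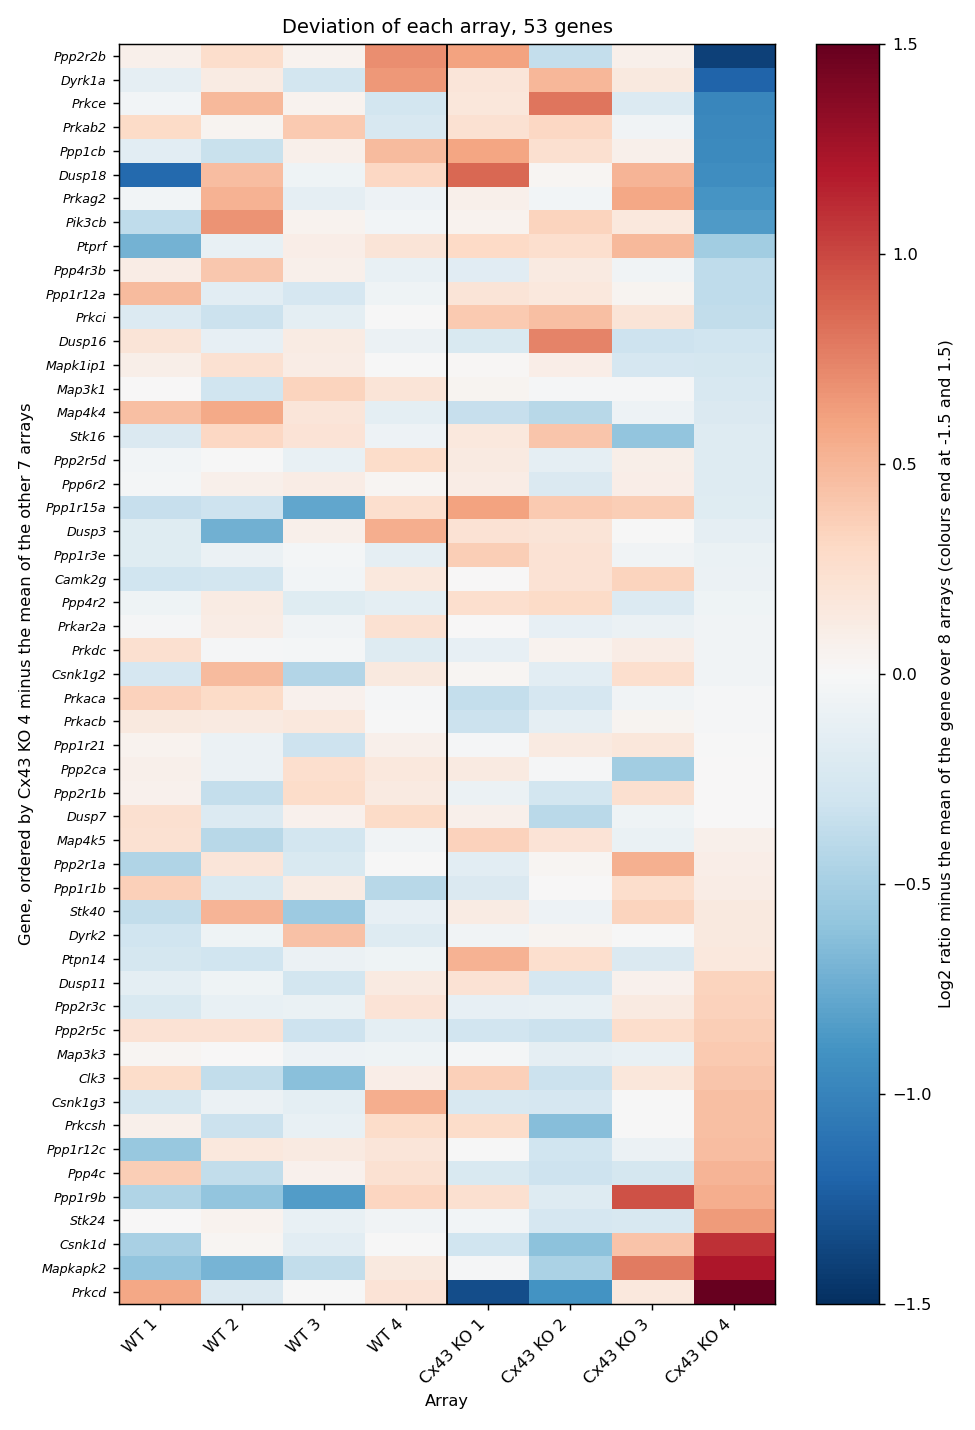
Deviation of each array (columns) from the mean of the gene over 8 arrays (log2, colour, with colours ending at -1.5 and 1.5) for 53 genes, ordered by how far Cx43 KO 4 lies from the other arrays. The column of Cx43 KO 4 is lowest for Ppp2r2b and Dyrk1a and highest for Prkcd and Mapkapk2. Dark cells outside it include Prkcd on Cx43 KO 1 and Dusp18 on WT 1.

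Several tested members had more than 1 feature on the array, 24 in all, and in 13 of these at least 2 features could be tested on their own, of which 8 gave the same sign across features. Features of Mapk1ip1 differed by -0.46 and 0.05, so that its value of -0.20 came from the first of them. The features averaged were not the same on every array for 9 members, and for 8 of these the value can be taken from features with a ratio on all arrays, a setting added after seeing the data. It was 0.22 in place of 0.76 for Mapkapk2, 0.18 in place of 0.31 for Clk3 and 0.17 in place of 0.26 for Ptprf, and it turned the sign for Dusp3 (-0.06) and Prkcsh (-0.05). Over the 53 members with such features the median difference was -0.0029.

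A further 58 members on the array were not tested. Of these, 39 had a ratio on no array, among them Mapk8, Mapk7, Map2k4, Akt2, Csnk1a1, Csnk2a1, Ppp3ca, Prkar1a and Ptprc, and 19 had a ratio on at least 1 array, 11 of them on 4 or more. They include Stk11, Prkd2 and Map3k7, and Mapk13, a p38 form, with a ratio on 1 WT and 3 Cx43 KO arrays. An absent ratio says nothing of the level, since the reason for the exact 0 is not given in the sources used here.

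Partners of these enzymes outside the chosen symbols gave no adjusted call either. Of 15 Ras and Raf pathway genes on the array 8 were tested, 6 higher and 2 lower (median 0.21). Rasa1, which switches Ras off, had 0.56, 0.47, 0.66 and -0.12 in WT and -0.09, -0.19, -0.16 and -0.02 in Cx43 KO, the genotypes differing by -0.51 (limma SE 0.20, adjusted p = 0.655), with WT 4 among the Cx43 KO arrays. Braf differed by 0.35 (SE 0.23). Transcription factors that JNK, p38 and ERK phosphorylate had 3 of 8 tested, 1 higher and 2 lower. Atf2, a target of JNK and p38, had 0.67, 1.38 and 1.06 on WT 1, 2 and 4 and 1.49, 1.81, 1.68 and 1.41 in Cx43 KO, with no overlap and a difference of 0.56 (limma SE 0.22, adjusted p = 0.655). Mef2c, a target of p38 that microglia also express, had -1.09, -0.56, -0.57 and -1.14 in WT and -2.13, -1.70, -0.74 and -1.81 in Cx43 KO, the genotypes differing by -0.75 (limma SE 0.29, adjusted p = 0.655). Its values on Cx43 KO 1, 2 and 4 lay below all WT arrays. The mean over 6 microglia and macrophage markers was lowest on Cx43 KO 1 and 2 and highest on Cx43 KO 4.

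The other partner lists held 0 genes with an unadjusted p under 0.05. The PI3K and mTOR list had 5 of 10 genes tested, 2 higher and 3 lower (median -0.09), with Tsc2 at -0.22 (SE 0.22) and Foxo1 at 0.32 (SE 0.33). The cyclic AMP list had 8 of 13 tested, 5 higher and 3 lower (median 0.08), with the phosphodiesterase Pde4b at 0.28 (SE 0.25) and the transcription factor Creb1 at -0.20 (SE 0.18). The calmodulin and calcineurin list had 5 of 7 tested, 1 higher and 4 lower (median -0.06), with Marcks, a protein kinase C substrate, at -0.26 (SE 0.23) and Chp1 at 0.15 (SE 0.17).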

How the data were processed

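The authors deposited signed log ratios of the 2 channels per feature, read here as log2 with an assumed base. For the base, dyes, scanner, background correction and normalization, nothing is given in the sources used here. Exact 0 (42.4% to 63.4% of the 9568 features on an array) was read as no ratio, arrays were set to a median of 0 (medians before this were 0.09 to 0.32), and features of a gene were averaged. Symbols came from GEO's platform annotation. Genes with 3 or more values per genotype entered limma 3.58.1 (lmFit, eBayes, R 4.3.3; tables with Python 3.11.15, pandas 2.3.3, numpy 2.4.6), two-sided, Benjamini-Hochberg over 3505. The scripts were tested on simulated data. No counts or intensities were given, and the number of arrays limits the precision.

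The members, lists and rule were chosen with earlier results of these data known. The rule named the 4 smallest p of each role, genes without overlap, the 8 highest and 8 lowest levels, members tied to connexin43 or to immune cells, and 2 genes of each partner list; members outside it were named after their values were seen. Same-numbered arrays share a lot batch in the labels, and their deviations from the genotype means correlated at r = -0.18, 0.19, -0.13 and -0.19 across genes, so the pairing comes from the labels alone. Promoter windows were RefSeq's (GRCm38.p6). Alternatives covered exact 0, centring, quantile and scale normalization, the filter, single features, array weights, lot batch as a block, leaving out arrays or lots and, added after seeing the data, only features with a ratio on all arrays.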

Additional observations from a re-analysis of the deposited data

Results flagged for a closer look

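Of 116 groups of 4 arrays (the WT or the Cx43 KO arrays of a tested member), 5 had an array set apart by more than Dixon's 95% critical value, where chance gives about 1 in 20 groups. Dusp16, a phosphatase of JNK, was at 0.71 on Cx43 KO 2 and between -0.35 and -0.27 on the other Cx43 KO arrays. Ppp1r12c, a myosin-targeting subunit of protein phosphatase 1, was at -0.39 on WT 1 and between 0.32 and 0.36 on the other WT arrays. Ppp4c, the catalytic subunit of protein phosphatase 4, was at -0.28 on Cx43 KO 4 and between -1.10 and -1.02 on the others. Prkag2, a subunit of AMP-activated kinase, was at 0.011 on WT 2 and between -0.64 and -0.55 on the others. Prkacb, a catalytic subunit of protein kinase A, was at -0.14 on WT 4 and between -0.0065 and 0.02 on the others.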

How the results depend on the processing

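The count of members at an unadjusted p of 0.05 was 5 and became 3 with only genes measured on all arrays, 3 with lot batch as a block (the paired fit), 9 with array weights and 3 with only features measured on all arrays, the last chosen after seeing the data. Leaving out 1 array or 1 lot batch gave 1 to 6, and the other settings tried 4 to 6. Over all genes the adjusted count of 0 became 1 without WT 2 and 4 without Cx43 KO 4 (0 to 4 over left-out arrays and lots), and was 0 in the other settings. The median difference of the members ran from -0.01 to 0.06. The block changed no adjusted call.

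Of the 66 tested members, 35 had 1 sign in every setting that could be fitted and 31 did not, with 1152 of 1270 values on the same side and 118 reversed. The smallest adjusted p in any setting was 0.0992. With exact 0 kept, reversed values were 0.14 for Ppp1r10, 0.0030 for Prkdc and -0.037 for Ptpn12, and without centring 0.00037 for Prkdc. With quantile normalization they were -0.013 for Map3k12, -0.044 for Ppp1r12a, 0.029 for Ppp1r7, 0.11 for Ppp2r5d, 0.046 for Prkce, -0.030 for Prkcsh and 0.034 for Stk16. With scale normalization they were -0.020 for Map3k12, -0.050 for Ppp1r12a, 0.51 for Ppp1r7, 0.16 for Ppp2r5d, 0.10 for Prkce, -0.016 for Prkcsh and 0.10 for Stk16. With the block, Stk4 was at -0.00090. With array weights they were 0.12 for Dyrk1a, -0.062 for Dyrk2, -0.015 for Map3k3, 0.26 for Ppp1cb, -0.11 for Ppp1r12c, -0.071 for Ppp2r5c, 0.032 for Ppp2r5d, 0.014 for Prkag2, 0.051 for Prkce, 8.0e-05 for Prkdc, -0.059 for Stk24 and -0.027 for Stk4. With features measured on all arrays they were -0.055 for Dusp3 and -0.052 for Prkcsh.

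With an array or lot left out, ranges crossing 0 were -0.0075 to 0.62 for Csnk1d, -0.19 to 0.25 for Csnk1g2, -0.18 to 0.15 for Csnk1g3, -0.36 to 0.075 for Dusp16, -0.37 to 0.73 for Dusp18, -0.13 to 0.41 for Dusp3, -0.39 to 0.37 for Dyrk1a, -0.029 to 0.23 for Dyrk2, -0.080 to 0.12 for Map3k3, -0.34 to 0.11 for Pik3cb, -0.29 to 0.44 for Ppp1cb, -0.098 to 0.16 for Ppp1r12a, -0.14 to 0.20 for Ppp1r12c, -0.064 to 0.31 for Ppp1r1b, -0.19 to 0.023 for Ppp2r1b, -0.18 to 0.20 for Ppp2r5c, -0.14 to 0.089 for Ppp2r5d, -0.34 to 0.00065 for Ppp4c, -0.41 to 0.044 for Prkab2, -0.41 to 0.14 for Prkag2, -0.83 to 0.27 for Prkcd, -0.39 to 0.20 for Prkce, -0.10 to 0.26 for Prkcsh, -0.066 to 0.11 for Prkdc, -0.27 to 0.12 for Stk16, -0.16 to 0.17 for Stk24 and -0.00090 to 0.23 for Stk4. The cause was not tested.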
